A study of Homo sapiens with 6 samples.

Results

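Expression of 10 genes of polyamine metabolism was followed on 6 microarrays of Du145, a cell line from a human prostate carcinoma. The genes were taken by symbol: SAT1, SMOX and PAOX of acetylation and oxidation, ODC1, AMD1, SRM and SMS of synthesis, and OAZ1, OAZ2 and AZIN1, which control ODC1. Each had 1 probe set, so all 10 were present among the 18417 genes tested. The family was chosen because SAT1 stood strongly higher in shTSC2 than in control cells. No p-value is therefore given for SAT1, and its SEs and intervals are a description. The shTSC2 versus control differences of all members are a description too. The 3 groups held 2 arrays each. Cells labelled shTSC2-adapted were adapted from the knockdown, cells labelled shTSC2 had been infected with a lentivirus against the tumour suppressor gene TSC2, and control cells are named only as control. All were kept at 1% oxygen and 5% CO2 in medium rich in glucose, with 10% serum, for 24 h of hypoxia before RNA was collected. Nothing in the labels tells how cells were adapted, what virus, if any, control cells had, or that a group's arrays were separate cultures. P-values therefore cover the spread from array to array, possibly technical, and no more. Effects of the virus or hairpin cannot be told apart from those of lower TSC2.

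Polyamines are small cations that bind RNA and DNA and are needed for growth. ODC1, ornithine decarboxylase, makes putrescine from ornithine, and SRM and SMS extend it to spermidine and spermine with aminopropyl groups from decarboxylated S-adenosylmethionine, the product of AMD1. SAT1 acetylates spermidine and spermine for export or for oxidation by PAOX, while SMOX oxidises spermine directly. Antizymes (OAZ1, OAZ2) bind ODC1 and send it to the proteasome, and the antizyme inhibitor AZIN1 takes antizyme away from ODC1. Prostate epithelium is known for very high polyamine production, and in prostate cancer the stability of the AMD1 protein is known to depend on mTORC1, the kinase complex that TSC2 restrains. Arrays measure RNA only, and in bulk RNA fewer cells with a transcript and less of it per cell cannot be told apart.

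Promoter windows were taken from RefSeq sequences (GRCh38.p14) for 7 of the 10 genes. SMOX and PAOX had no sequence there, and AZIN1 was left out by name. The 250 bases before the annotated start are shown for SAT1 and for ODC1 and AMD1, the synthesis genes with the largest differences. They lie at chrX:23782923-23783172 (plus strand), chr2:10448328-10448577 (minus strand) and chr6:110874535-110874784 (plus strand, the first start listed). Capitals mark letters that match, on either strand, 1 of 5 motifs. The motifs were the E-box CACGTG, which MYC and MAX read, the cyclic AMP response element core TGACGT, the AP-1 motif TGANTCA, the CCAAT box with those letters, and the TATA box searched as TATAA. No matches overlapped.
SAT1: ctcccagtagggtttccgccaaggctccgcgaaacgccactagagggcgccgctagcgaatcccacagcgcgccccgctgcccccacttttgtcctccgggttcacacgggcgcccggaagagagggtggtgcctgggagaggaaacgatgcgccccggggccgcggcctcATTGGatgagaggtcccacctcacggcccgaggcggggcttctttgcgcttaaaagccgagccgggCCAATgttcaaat
ODC1: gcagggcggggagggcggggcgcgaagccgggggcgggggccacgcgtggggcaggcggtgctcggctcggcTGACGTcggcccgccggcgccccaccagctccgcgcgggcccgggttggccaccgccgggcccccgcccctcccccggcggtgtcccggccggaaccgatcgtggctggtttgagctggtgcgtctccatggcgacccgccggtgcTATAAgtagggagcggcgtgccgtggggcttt
AMD1: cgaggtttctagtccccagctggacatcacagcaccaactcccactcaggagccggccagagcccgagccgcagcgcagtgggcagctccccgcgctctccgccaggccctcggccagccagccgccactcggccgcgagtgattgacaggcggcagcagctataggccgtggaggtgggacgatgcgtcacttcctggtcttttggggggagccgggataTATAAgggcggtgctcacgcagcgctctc
SAT1 held CCAAT on the plus strand 13 bases and on the minus strand 79 bases before the start. ODC1 held TATAA 32 bases and TGACGT 178 bases before the start, and AMD1 held TATAA 29 bases before it. Of 27305 promoters of this length, 33.0% held the CCAAT box, 19.6% the TATA box letters and 7.42% the response element core. The E-box (6.49% of promoters) and the AP-1 motif (6.60%) were not in these 3 windows. Among the other members SRM held an E-box 199 bases and OAZ2 an AP-1 motif 241 bases before the start. SRM, SMS and OAZ1 also held the CCAAT box. A match of letters is no evidence of binding.

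The knockdown itself read as labelled. TSC2 stood at 6.54 and 6.48 in shTSC2-adapted, 6.67 and 6.55 in shTSC2, and 7.52 and 7.59 in control (log2 intensity, as for all levels below). It was lower than control by limma in shTSC2 (-0.95, SE 0.10, adjusted p = 0.00102) and in shTSC2-adapted (-1.05, SE 0.10, adjusted p = 0.0241), although the second call ended without any 1 of its 4 arrays (0.0973 to 0.386). Median intensities were 58.1 to 63.1, and arrays of a group correlated at Pearson r = 0.990 to 0.997 across genes. The epithelial keratins KRT8 and KRT18 read 11.22 to 11.50 on every array, while KLK3, a gene of androgen-dependent prostate cells, read 5.01 to 5.29. EPCAM and KRT19, also epithelial, were lower in shTSC2 than in control (-1.29 and -1.38, adjusted p = 0.0271 and 0.00664, limma), and together with CDH1 they were higher in shTSC2-adapted than in shTSC2. The summed intensity of the 5 epithelial markers was 6413 to 6420 in shTSC2-adapted, 5841 to 6037 in shTSC2 and 5341 to 5630 in control. KRT8 and KRT18, the brightest of the 5, weigh most in this linear sum. Against control, the median log2 difference of the 5 was -0.14 in shTSC2 and 0.225 in shTSC2-adapted. Of 5 markers of the embryonic kidney line used to package lentivirus, 2 (PAX2 and NEFM) were higher in shTSC2 than in control. The summed intensity of the list was 375 to 531 in shTSC2-adapted, 443 to 497 in shTSC2 and 330 to 341 in control. Log2 levels in the list ran from 3.31 to 8.03, and in control NEFL read 7.15 and 7.25 and POU3F2 6.47 and 6.49. Of 4 lymphoid and myeloid and 5 fibroblast markers, none passed in any comparison by limma, and only PDGFRA, a fibroblast marker, had an unadjusted p under 0.05. The part of these markers in the results below was not tested.

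SAT1, the enzyme that starts polyamine breakdown and export, was high on both shTSC2 arrays and on 1 shTSC2-adapted array. It read 8.97 and 7.84 in shTSC2-adapted, 9.76 and 10.1 in shTSC2, and 7.29 and 7.87 in control. The shTSC2 arrays lay above all others, whereas the shTSC2-adapted arrays, 1.13 apart, overlapped control. The shTSC2 minus control difference was 2.35 on the log2 scale (SE 0.35), a 5.10-fold higher level. The shTSC2-adapted minus shTSC2 difference was -1.53 (SE 0.35), and it was -2.09 without shTSC2-adapted 1 and -0.96 without shTSC2-adapted 2. The shTSC2-adapted minus control difference was 0.83 (95% interval -0.00 to 1.65), which 1 array decided, since it was 0.26 without shTSC2-adapted 1 and 1.39 without shTSC2-adapted 2.

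The oxidases showed smaller differences. SMOX, spermine oxidase, read 7.55 and 7.20 in shTSC2-adapted, 7.30 and 7.42 in shTSC2, and 6.96 and 7.04 in control. Both knockdown groups lay above control without overlap and overlapped each other. SMOX differed from control by 0.38 in shTSC2-adapted (SE 0.13) and did not pass (adjusted p = 0.298, limma over 18417 genes, two-sided, as for all adjusted p below), and by 0.36 in shTSC2 (SE 0.13). PAOX, the oxidase of acetylated polyamines, read 6.31 and 6.31 in shTSC2-adapted, 6.34 and 6.31 in shTSC2, and 6.20 and 6.26 in control. Its largest difference was 0.10 (shTSC2 minus control, SE 0.09). It was the dimmest member, at the 46.3rd percentile of mean levels, but above the lower quartile of all probe sets (4.33).

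Among the synthesis genes, ODC1 and AMD1 differed in opposite directions. ODC1, which makes putrescine, read 10.28 and 10.23 in shTSC2-adapted, 10.60 and 10.79 in shTSC2, and 10.18 and 10.00 in control. The groups did not overlap, with shTSC2 highest and control lowest. It was 1.52-fold higher in shTSC2 than in control (log2 difference 0.61, SE 0.11). In shTSC2-adapted it was lower than in shTSC2 (-0.44, SE 0.11, adjusted p = 0.0438) and stood 0.17 above control (95% interval -0.10 to 0.43, adjusted p = 0.633). The call against shTSC2 ended without either shTSC2-adapted array (0.140 without the first, 0.155 without the second), without shTSC2 2 (0.115), without either control array or with only the 4 arrays compared (0.0892 each), with array weights (0.0841) and with the gene length trend removed (0.0963), and all settings gave adjusted p of 0.0256 to 0.155.

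AMD1, whose product supplies the aminopropyl groups, was the lowest member in shTSC2 relative to control. It read 9.15 and 9.75 in shTSC2-adapted, 8.72 and 8.44 in shTSC2, and 9.89 and 9.59 in control. Both shTSC2 arrays lay below the other 4, and shTSC2-adapted overlapped control. The shTSC2 level was 2.23-fold lower than control (log2 difference -1.16, SE 0.21). Against shTSC2, AMD1 was higher in shTSC2-adapted cells (0.87, SE 0.21, adjusted p = 0.0356), and its shTSC2-adapted minus control difference was -0.29 (95% interval -0.78 to 0.20, adjusted p = 0.658). The call against shTSC2 ended without shTSC2-adapted 2 (0.57, adjusted p = 0.131), without shTSC2 2 (0.109), without either control array or with only the 4 arrays compared (0.0734 each), with array weights (0.0581) and with the gene length trend removed (0.0541), over a range of 0.0175 to 0.131. Without shTSC2-adapted 1, whose 9.15 was the lower of its group, the difference from control was 0.01.

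The aminopropyl transferases differed little. SRM, spermidine synthase, read 8.88 and 9.22 in shTSC2-adapted, 9.10 and 9.11 in shTSC2, and 9.49 and 9.19 in control. The shTSC2 arrays lay just below control, and the shTSC2-adapted arrays overlapped both other groups. Its differences were -0.29 for shTSC2-adapted minus control (adjusted p = 0.493), -0.24 for shTSC2 minus control (SE 0.15) and -0.06 for shTSC2-adapted minus shTSC2 (adjusted p = 0.855). SMS, spermine synthase, read 9.14 and 9.32 in shTSC2-adapted, 9.55 and 9.69 in shTSC2, and 9.40 and 9.28 in control. The shTSC2 arrays were the highest without overlap. SMS was 0.39 lower in shTSC2-adapted than in shTSC2 and did not pass (difference -0.39, SE 0.11, adjusted p = 0.0624), although it did with quantile normalization (0.0327) and with the gene length trend removed (0.0452).

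Of the genes that control ODC1 protein, OAZ1 was higher and its inhibitor AZIN1 lower in shTSC2 than in control. OAZ1, the main antizyme and the brightest member, read 11.42 and 11.18 in shTSC2-adapted, 11.75 and 11.47 in shTSC2, and 11.16 and 11.13 in control. The 3 groups did not overlap, although shTSC2-adapted 2 lay close to control. OAZ1 was 1.38-fold higher in shTSC2 than in control (log2 difference 0.47, SE 0.13), and the shTSC2-adapted minus shTSC2 difference was -0.31 (adjusted p = 0.179). OAZ2, a second antizyme, read 8.50 and 8.66 in shTSC2-adapted, 9.09 and 8.73 in shTSC2, and 8.73 and 8.60 in control. Its shTSC2 and control arrays shared the value 8.73, and its largest difference was -0.33 for shTSC2-adapted minus shTSC2 (adjusted p = 0.180, but 0.0403 without shTSC2 2).

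AZIN1, the antizyme inhibitor, was lowest on the shTSC2 arrays. It read 10.32 and 10.59 in shTSC2-adapted, 9.76 and 10.00 in shTSC2, and 10.74 and 10.56 in control. Both shTSC2 arrays lay below the other 4, and shTSC2-adapted overlapped control. In shTSC2 it was 1.71-fold lower than in control (log2 difference -0.77, SE 0.14). Its shTSC2-adapted level was above that of shTSC2 (0.58, SE 0.14, adjusted p = 0.0349) and stood 0.20 below control (difference -0.20, 95% interval -0.52 to 0.13, adjusted p = 0.650). The call against shTSC2 ended without shTSC2-adapted 1 (0.0609), shTSC2-adapted 2 (0.156) or shTSC2 1 (0.0984), without either control array or with only the 4 arrays compared (0.0789 each), with array weights (0.0580) and with median centring (0.0519), over a range of 0.0221 to 0.156.

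**Figure D1:**
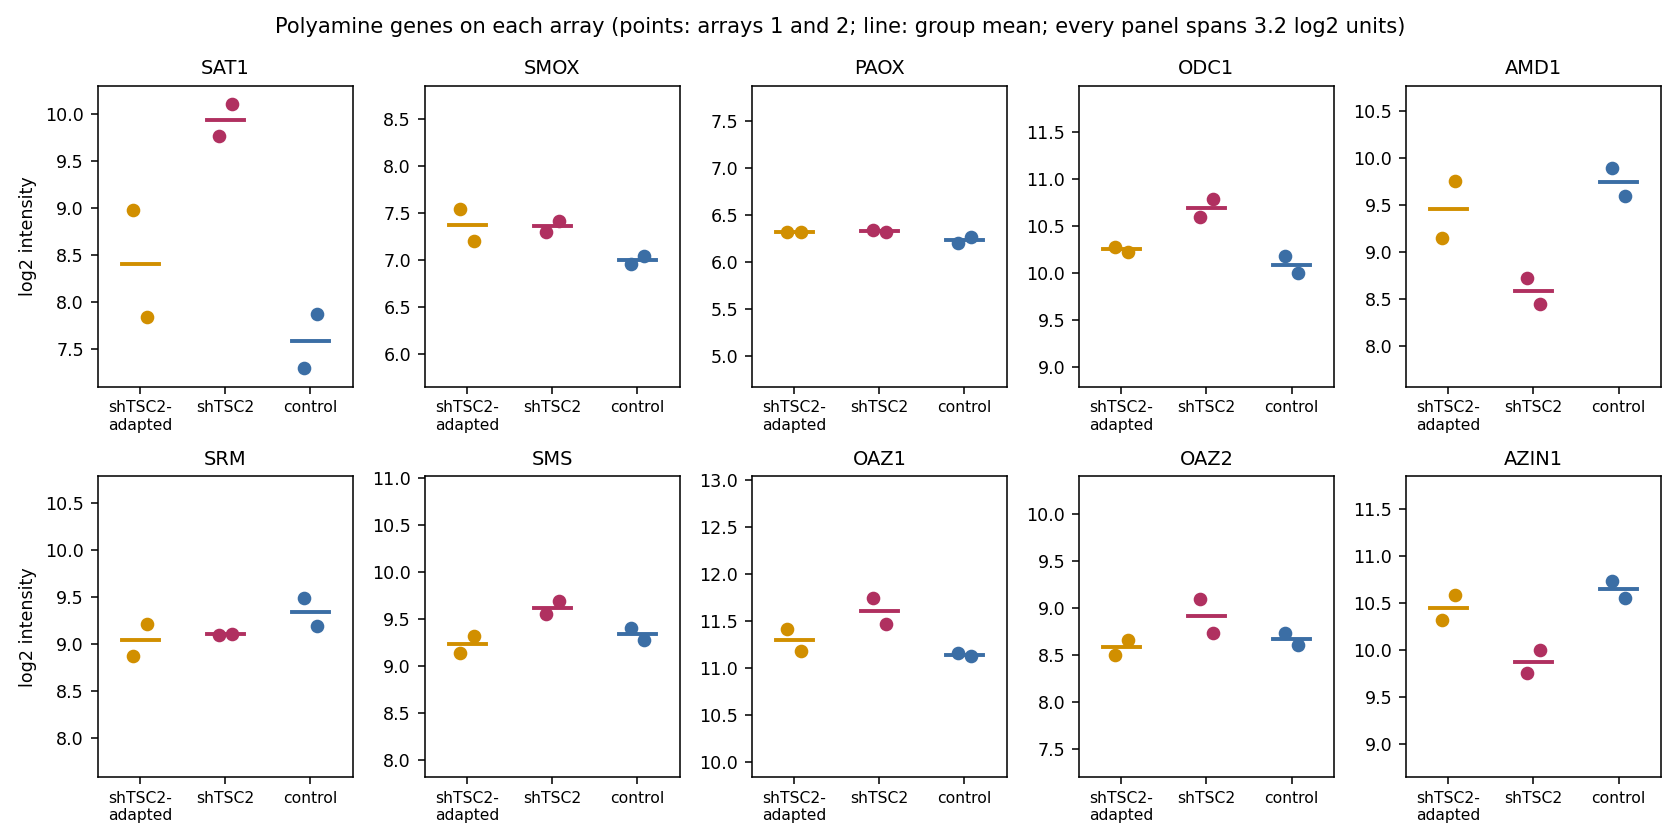
Log2 intensity (vertical axis) of the 10 polyamine genes on each array, by group (horizontal axis), with points for the 2 arrays and a line for the group mean; every panel spans the same range of log2 units. The shTSC2 points are highest for SAT1 (9.76 and 10.1), ODC1, SMS and OAZ1 and lowest for AMD1 (8.72 and 8.44) and AZIN1. The shTSC2-adapted points of SAT1 lie 1.13 apart.

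Of the 9 members other than SAT1, 4 passed the threshold of adjusted p 0.05 in shTSC2 versus control, where 20.8% of all genes passed, 6.87% higher and 13.9% lower. The arrays of 8 of the 9, all but OAZ2, did not overlap, as for 62.0% of all genes. Past the threshold were ODC1 and OAZ1, higher, and AMD1 and AZIN1, lower, and because the family was chosen on this comparison nothing is read from the count. It was 1 without control 1, where AMD1 (-1.01), AZIN1 (-0.68) and OAZ1 (0.48) no longer passed, and 2 without control 2, where ODC1 (0.52) and OAZ1 (0.45) did not. OAZ1 also did not pass without shTSC2 1 (0.33). The median difference of the 9 was 0.25, against 0.03 over all genes.

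In shTSC2-adapted versus shTSC2, 3 of the 9 members other than SAT1 passed, where 12.5% of all genes did, 9.25% higher and 3.24% lower. AMD1 and AZIN1 were higher, and ODC1 lower. The arrays of 6 of the 9 did not overlap, as for 52.1% of all genes. This comparison shares the shTSC2 arrays with the comparison that chose SAT1. The median difference of the 9 was -0.06, against -0.03 over all genes. The count was 0 without shTSC2-adapted 2, control 1 or control 2, 1 without shTSC2-adapted 1, and 2 without shTSC2 1 or shTSC2 2.

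In shTSC2-adapted versus control, 0 of the 9 members other than SAT1 passed with limma, where 0.261% of all genes did. With an unadjusted p under 0.05 the count was 1 member, SMOX, where 12.6% of all genes passed. The arrays of 4 members (SMOX, PAOX, ODC1 and OAZ1) lay above control without overlap, against 45.9% of all genes that did not overlap in either direction. The median difference of the 9 was -0.09, against -0.01 over all genes, and their differences ran from -0.29 (AMD1 and SRM) to 0.38 (SMOX). A p that misses the threshold with 2 arrays a group does not show equal levels.

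**Figure D2:**
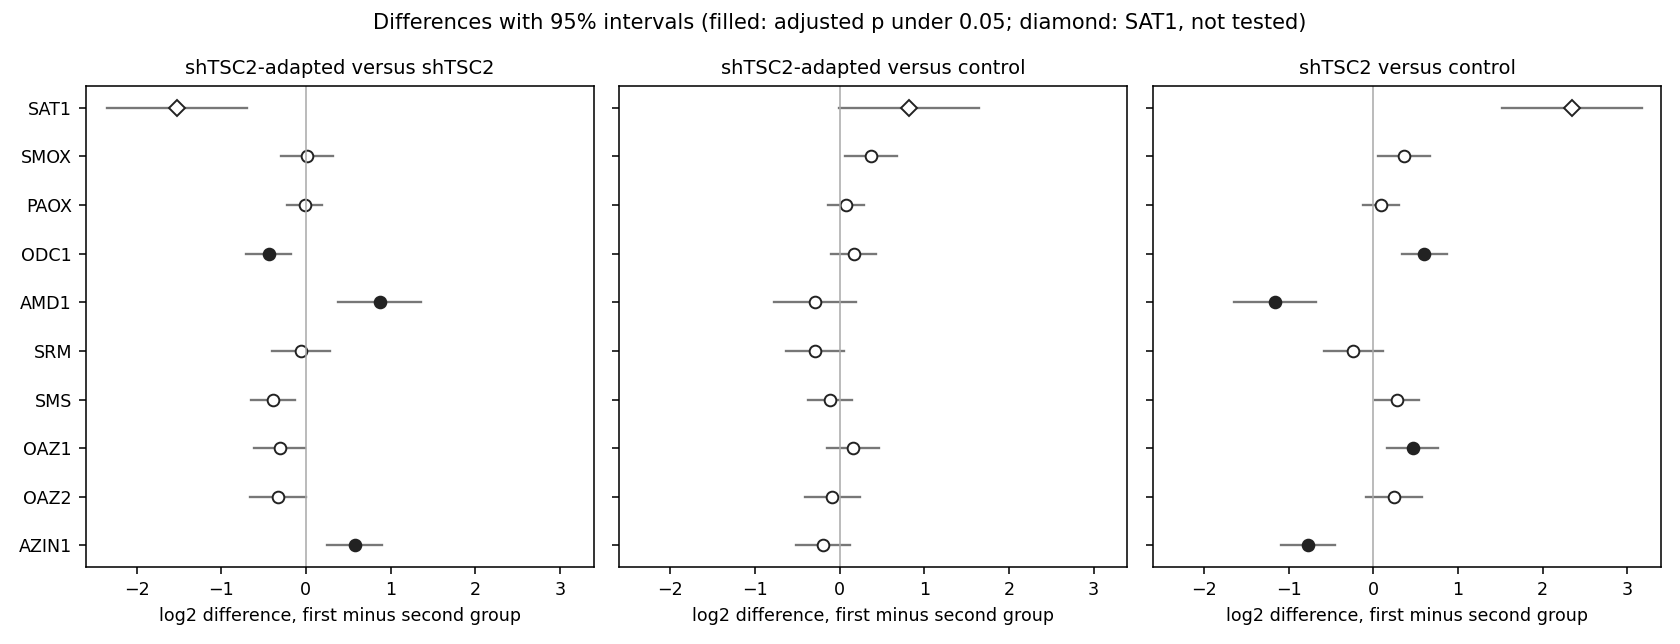
Log2 differences (horizontal axis) of the 10 members in the 3 comparisons, one panel each, as points with 95% intervals from limma. Filled points had an adjusted p under 0.05. The diamond, open in every panel, marks SAT1, for which no p-value is given because it chose the family. The intervals of AMD1 and AZIN1 lie above 0 for shTSC2-adapted versus shTSC2 (0.87 and 0.58) and below it for shTSC2 versus control (-1.16 and -0.77).

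Gene span moved with the shTSC2 differences over the whole array. Over 16902 genes that code for proteins, and that are no independent replicates, Spearman's rho between the shTSC2 minus control difference and gene span in the RefSeq table was -0.33, and it was 0.33 for shTSC2-adapted minus shTSC2 and -0.10 for shTSC2-adapted minus control. Short genes were SAT1 at 3.04 kb, OAZ1 at 4.00 kb and ODC1 at 8.36 kb, all higher in shTSC2, and AZIN1 at 37.9 kb and AMD1 at 81.1 kb, both lower, were longer. Other members did not follow this order: SMOX, at 38.9 kb, stood at 0.36, SMS, at 54.1 kb, at 0.28, and SRM, at 5.43 kb, at -0.24. Of the genes in the same eighth of spans as SAT1 and OAZ1, the shortest, 9.09% were called higher and 3.98% lower in shTSC2 than in control. In the eighth that held AZIN1 and SMOX, 6.86% were called higher and 15.8% lower. In the eighth with AMD1, the next to longest, 3.08% were called higher and 25.2% lower. With the length trend removed on each array, the shTSC2 minus control differences were 2.24 for SAT1, 0.51 for ODC1, -0.74 for AZIN1 and -1.05 for AMD1. OAZ1 stood at 0.36 and no longer passed.

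**Figure D3:**
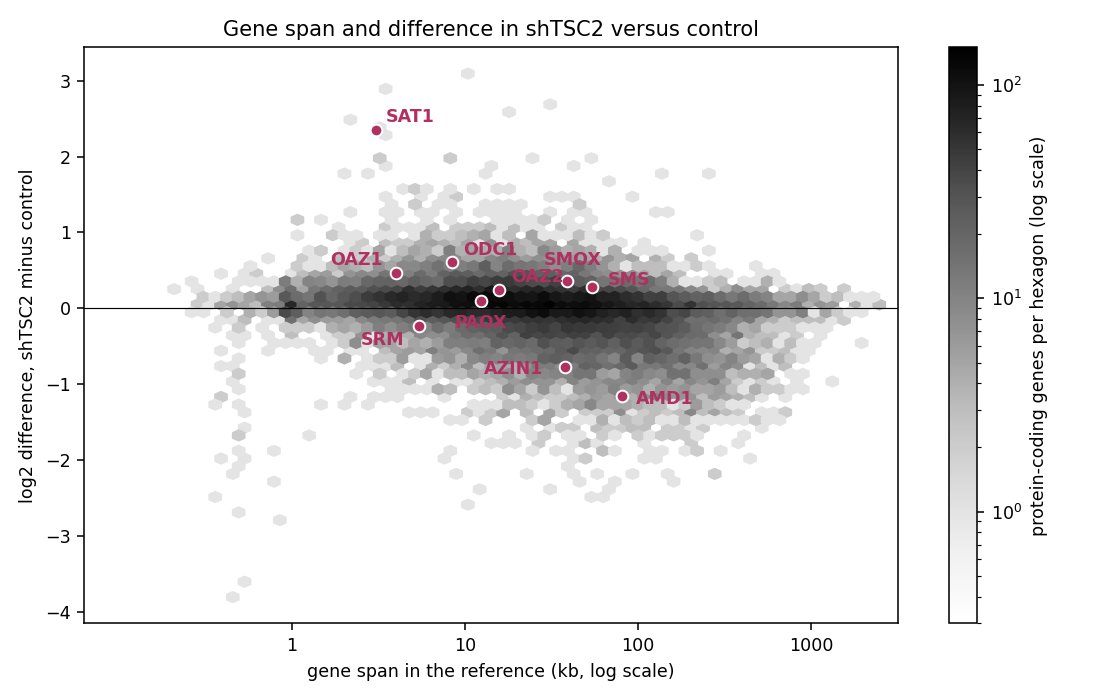
Log2 difference of shTSC2 minus control (vertical axis) against gene span in kb (log horizontal axis) for protein-coding genes, shaded by their number per hexagon, with the 10 members as points. AMD1 (81.1 kb) lies among the lower long genes, and AZIN1 (37.9 kb), of middle span, also lies low. SAT1 (3.04 kb) lies among the few highest genes of its span.

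Of 53 further genes of the pathway, listed with earlier results of these data known, 47 were tested. In shTSC2 versus control 6 rose and 3 fell, or 19.1% of them, against 20.8% of all genes, a share near the background. The falls were in ATP13A3, a transporter linked to polyamine uptake, SLC7A1, which imports arginine and ornithine, and MAT2A, which makes the S-adenosylmethionine used by AMD1. ATP13A3 read 9.91 and 9.95 in shTSC2-adapted, 9.45 and 9.68 in shTSC2, and 10.38 and 10.33 in control. It fell by 0.79 in shTSC2 against control (SE 0.11, adjusted p = 0.00274) and passed in every setting tried. SLC7A1 fell by 0.64 (adjusted p = 0.0150) and MAT2A by 0.55 (adjusted p = 0.0177), and neither passed without control 1 (0.127 and 0.120) or control 2 (0.0740 and 0.120).

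The rises included MTAP and ENOPH1, which recycle the methylthioadenosine left by SRM and SMS. MTAP read 7.76 and 7.88 in shTSC2-adapted, 8.12 and 8.26 in shTSC2, and 7.51 and 7.49 in control, with no overlap between groups. It rose by 0.69 in shTSC2 against control (SE 0.10, adjusted p = 0.00353), in every setting tried. PYCR1, of proline synthesis, rose by 0.65 (adjusted p = 0.00854; 0.0948 without control 2), and ASL, which makes arginine, rose by 0.51 (adjusted p = 0.00946; 0.0670 without control 1 and 0.101 without control 2). ENOPH1 (0.48, adjusted p = 0.0425), ALDH9A1, an aldehyde dehydrogenase (0.41, 0.0379), and SAT2, a relative of SAT1 named after its values were seen (0.35, 0.0352), rose less. ENOPH1 did not pass without shTSC2 2, control 1 or control 2 (0.134, 0.0988 and 0.278), and ALDH9A1 did not without any of the 4 arrays compared (0.0527 to 0.212). SAT2 did not without any array except shTSC2 2 (0.0508 to 0.203), nor with only the 4 arrays compared (0.0508), an intensity trend in the variance prior (0.0603) or the gene length trend removed (0.106).

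By sublist, 2 of 11 transport genes fell, 2 of 11 genes of ornithine and arginine supply rose, 2 of 10 of the methionine cycle and salvage rose and 1 fell, and 2 of 7 further acetylases, oxidases and antizymes rose. Over all genes 6.87% were called higher and 13.9% lower. None of 3 hypusine genes or 5 regulators described for ODC1 or SAT1 passed with limma, and the count at an unadjusted p under 0.05 was also 0, where 33.3% of all genes passed. MYC, a known activator of ODC1 named here after its values were seen, stood at 0.09 (adjusted p = 0.686). In shTSC2-adapted versus shTSC2, 2 of 47 passed, against 12.5% of all genes: SLC12A8, a cation-chloride cotransporter relative linked to polyamine transport, was higher (0.57, SE 0.12, adjusted p = 0.0244), and ALDH9A1 lower (-0.51, SE 0.11, adjusted p = 0.0268). SLC12A8 did not pass without shTSC2-adapted 1 (0.122), shTSC2 2 (0.0567), either control array or with only the 4 arrays compared (0.0617 each), or with the gene length trend removed (0.0661). ALDH9A1 did not without shTSC2-adapted 1 (0.130), shTSC2 1 (0.0677), either control array or with only the 4 arrays compared (0.0766 each). In shTSC2-adapted versus control, 0 of 47 passed with limma, where 0.261% of all genes did, and 7 had an unadjusted p under 0.05, where 12.6% of all genes had one.

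**Figure D4:**
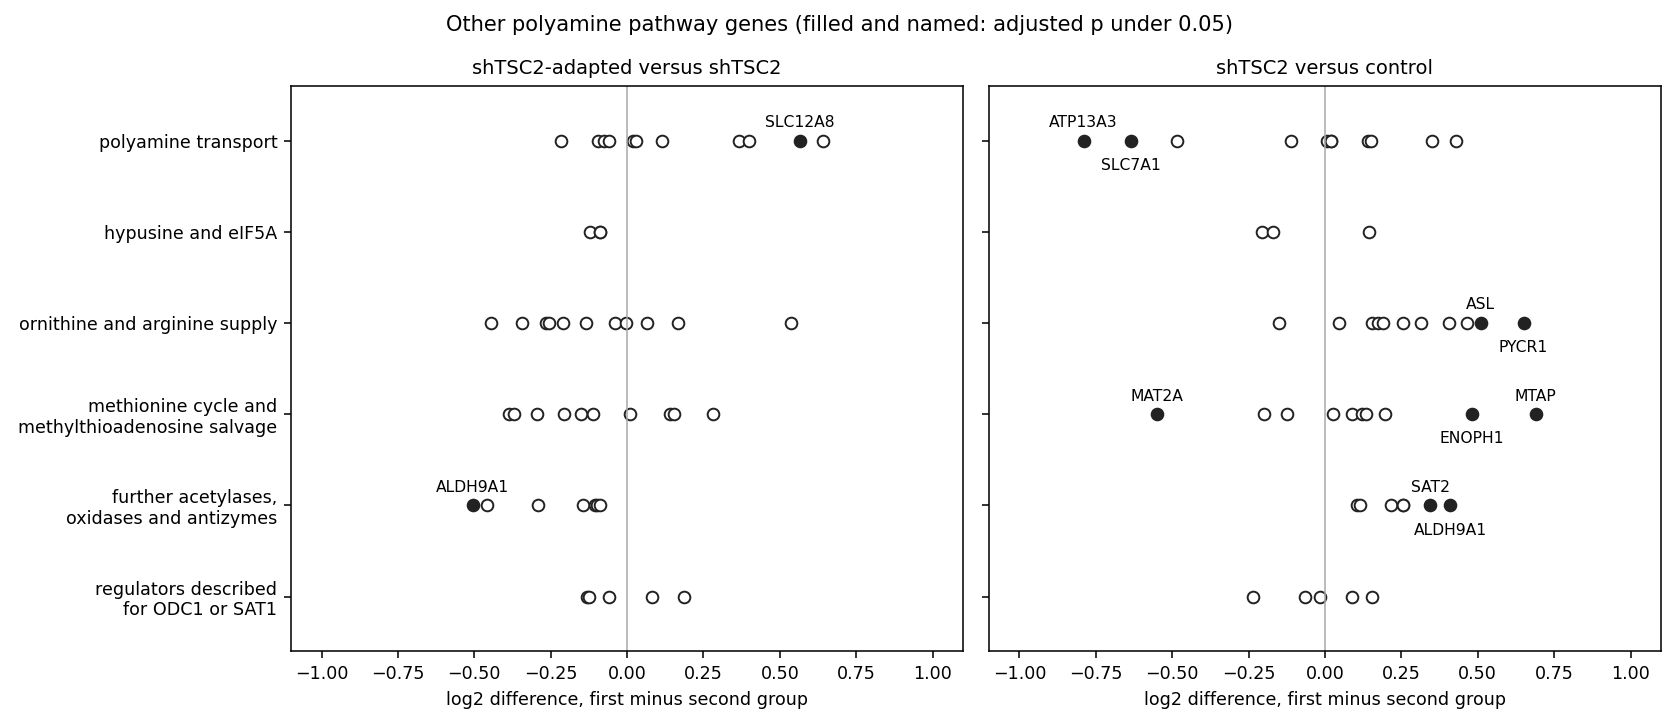
Log2 differences (horizontal axis) of 47 other polyamine pathway genes by sublist (vertical axis) for shTSC2-adapted versus shTSC2 and shTSC2 versus control, 1 open point per gene, filled and named where adjusted p was under 0.05. The filled points run from -0.79 (ATP13A3) to 0.69 (MTAP) for shTSC2 versus control, and SLC12A8 and ALDH9A1 are filled for shTSC2-adapted versus shTSC2.

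The genes most like SAT1 over the 6 arrays were sought by Euclidean distance between log2 values, each gene set to its control mean, among 18407 other genes. The nearest were EREG, an EGF receptor ligand (distance 0.76), GADD45A, a growth arrest gene induced by DNA damage (0.78), ATF3, a stress-induced transcription factor (0.87), TAP1, a peptide transporter of antigen presentation (1.16), and CXCL2, a chemokine (1.25). GADD45A read 9.30 and 8.32 in shTSC2-adapted, 9.73 and 10.04 in shTSC2, and 8.01 and 7.91 in control. The gap between the shTSC2-adapted arrays, 1.13 in SAT1, was 0.85 in EREG, 0.98 in GADD45A, 0.96 in ATF3 and 1.53 in CXCL2. Array 1 was higher in each, and the gap was 0.09 in TAP1. The distance that chose these genes used the same arrays, so a like gap was favoured by the choice. These values are a description and no separate evidence about SAT1. In a repeat chosen after the data were seen, 3 of the 5 genes remained among the nearest without shTSC2-adapted 1 or without shTSC2 2, and 4 or 5 without any other array.

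**Figure D5:**
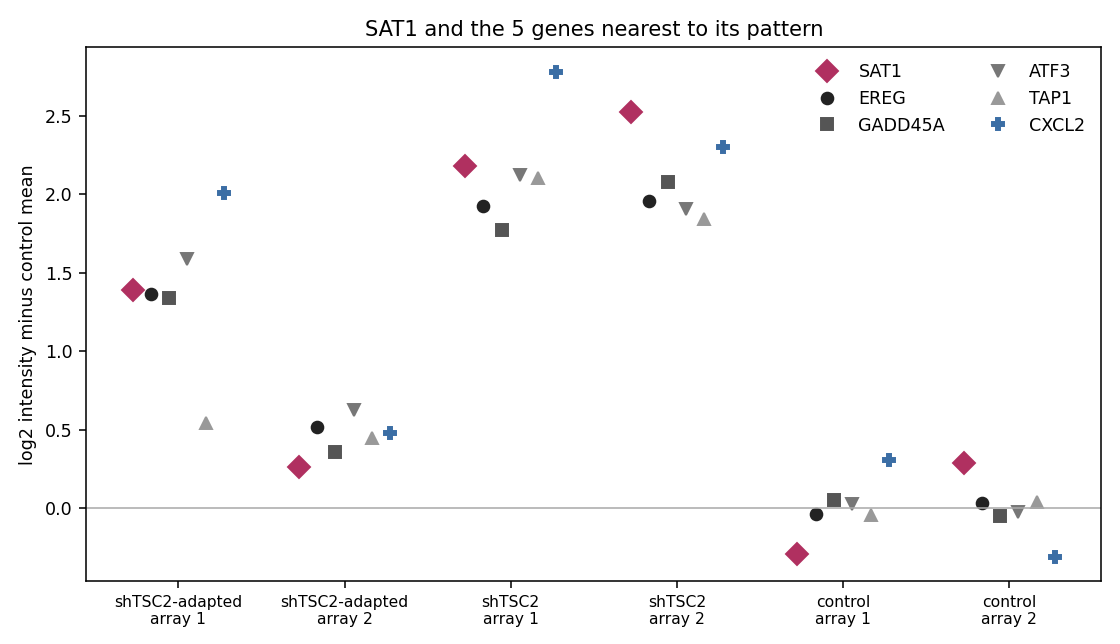
Log2 intensity minus the control mean (vertical axis) of SAT1 and the 5 genes nearest to it on each of the 6 arrays (horizontal axis), points offset sideways by gene. On shTSC2-adapted array 1 all genes shown except TAP1 lie well above their values on array 2. The 5 genes were chosen by distance over these same arrays.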

How the data were processed

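Total RNA (100 ng per array) of 6 Du145 samples was labelled with biotin, per the labels' protocols. The deposited table holds a linear intensity per probe set. RMA is the tool that the submitters' processing notes name, and for its version, probe definition and build none is given in the sources used here. RMA sets the arrays to one scale, which would hide part of a shift common to most genes. After log2, each deposited intensity was within 6.99e-10 of a value of 2 decimals and was rounded to it. Of 33297 probe sets, 19460 carried 1 gene symbol (platform annotation), and the highest-mean set per gene left 18417 genes. Gene spans and promoters came from RefSeq tables of GRCh38.p14.

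Groups came from the labels. One limma 3.58.1 model (R 4.3.3, lmFit, contrasts.fit, eBayes) used all 6 arrays, with 3 residual degrees of freedom and Benjamini-Hochberg adjustment over all genes. It was tested on simulated data. Members and lists were chosen with earlier results of these data known. Named genes were the members, TSC2, pathway genes past the threshold (up to 4 a direction) and the 5 genes nearest to SAT1. Marker genes named beside them were chosen after their values were seen. Alternatives are described in the closing section.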

Additional observations from a re-analysis of the deposited data

How the results depend on the processing

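Alternatives were quantile normalization, median centring, dim genes left out, every probe set tested, the lowest-mean probe set kept, only the 4 arrays compared, array weights, an intensity trend in the variance prior, a replicate block, the gene length trend removed, and each array left out (a lone array is then assumed to vary like the others). The search for genes nearest to SAT1 was repeated under settings added after the data were seen. The cause of the moves below was not tested, except that fewer arrays or genes entered some fits. Genes called in shTSC2-adapted versus control numbered 48, but 90 with median centring, 121 with dim genes left out, 248 with only the 4 arrays compared and 437 with array weights. Counts of members here take in SAT1, whose difference chose the family, and support nothing about it. In shTSC2-adapted versus shTSC2, members called numbered 4, but 0 with only the 4 arrays compared and with array weights. Pathway genes called there numbered 2, but 6 with quantile normalization, 5 with median centring, 4 with dim genes left out and 0 with only the 4 arrays compared, which called 1113 of all genes in place of 2300. In shTSC2 versus control quantile normalization called 15 pathway genes in place of 9. Without an array, the counts for shTSC2 versus control ran from 2 to 5 members, 2 to 10 pathway genes and 1175 to 3895 of all genes. For shTSC2-adapted versus shTSC2 they ran from 0 to 2, 0 to 5 and 837 to 2600, and for shTSC2-adapted versus control from 0 to 248 of all genes. Small differences changed sign: SMOX, shTSC2-adapted minus shTSC2 (0.02), stood at -0.079 with quantile normalization, -0.03 with median centring, -0.011 with the length trend removed and -0.16 to 0.19 without an array. In that comparison PAOX (-0.02) stood at 0.053 and SRM (-0.06) at 0.039 with the length trend removed, SRM at -0.23 to 0.12 without an array, and AMD1 against control (-0.29) at -0.59 to 0.01. Higher and lower calls in shTSC2 versus control were 1266 and 2567, but quantile normalization gave 1891 and 2111, and median centring 1802 and 2257. For shTSC2-adapted versus shTSC2 they were 1703 and 597, against 1345 and 942 after the quantile step and 1474 and 821 after centring.

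Arrays share only a number across groups. Deviations of array 1 from its group mean correlated across genes at 0.21 between shTSC2-adapted and shTSC2, -0.19 between shTSC2-adapted and control and -0.10 between shTSC2 and control. The next counts are for shTSC2 versus control, shTSC2-adapted versus control and shTSC2-adapted versus shTSC2, in that order. The replicate block called 4, 0 and 1 of the 9 members other than SAT1, and 6, 0 and 3 (2 lower, 1 without it) pathway genes. Of all genes it called 3536, 1 and 2064. Calls that ended with the block were those of ODC1 (adjusted p = 0.0697, limma) and AMD1 (0.0555) in shTSC2-adapted versus shTSC2, TSC2 (0.0515) in shTSC2-adapted versus control, and ENOPH1 (0.0588), SAT2 (0.0586) and ALDH9A1 (0.0580) in shTSC2 versus control. No other named gene lost a call.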
